A study of Mus musculus with 8 samples.

Results

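The loci of 8 genes of the pluripotency network were examined for binding of TET1, an enzyme that oxidises 5-methylcytosine in DNA, in mouse embryonic stem cells with and without nuclease treatment. The genes were Pou5f1, Nanog, Sox2, Klf4, Esrrb, Prdm14, Lefty1 and Tbx3. Each was represented by a fixed window on build mm9, and every deposited TET1 peak that overlapped a window by at least 1 bp was a member. The positions of the named regions are on mm9 throughout. There were 297 such peaks among the 446708 peaks of 6 lists, and they merged into 81 of the 137027 regions obtained from all lists. The windows were 24 kb (Sox2, Lefty1), 26 kb (Pou5f1, Klf4), 28 kb (Nanog), 35 kb (Prdm14, Tbx3) and 181 kb (Esrrb) long. They were given by position and can hold sequence of neighbouring genes. A region is named by its window, and whether it belongs to that gene or to a neighbour was not determined. No gene annotation of mm9 was used here, so exons, introns and promoters were not assigned to peaks.

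The 3 mock-treated and 3 nuclease-treated samples shared the genotype HA-Tet1, in which the endogenous TET1 carries an HA epitope tag for the antibody. The strain label was C57BL/6N, whereas the series design names the line E14TG2a. All cells were cultured with fetal calf serum and leukemia inhibitory factor, permeabilised, and either mock treated or given RNase H1 (0.2 U/ul) and Nuclease S1 (0.05 U/ul) together, for 20 min. All samples came from 1 line, mESHA-Tet1. The sample label of the treated cells names RNase H1 only. All were then crosslinked with 2 mM disuccinimidyl glutarate and with 0.7% formaldehyde before immunoprecipitation. Untagged cells and R-loop measurements were not analysed here. No sample received either enzyme alone. The labels do not say whether replicates were separate cultures, and the spread behind every p-value may therefore be technical.

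Pou5f1 (OCT4), Sox2 and Nanog encode the transcription factors at the centre of the network that keeps embryonic stem cells undifferentiated, and they bind one another's enhancers. Klf4, Esrrb and Tbx3 encode transcription factors that hold cells in the naive state, Prdm14 encodes a factor that represses Fgf signalling and the de novo DNA methyltransferases, and Lefty1 encodes a secreted inhibitor of Nodal signalling. TET1 carries a CXXC domain that binds DNA rich in unmethylated CG dinucleotides. RNase H1 cuts the RNA of RNA-DNA hybrids and Nuclease S1 cuts single-stranded nucleic acid, and an R-loop contains both a hybrid and a displaced single strand.

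The members differ in the CG content of their promoters, the feature that the CXXC domain reads. RefSeq (build GRCm38.p6) gave the 250 bases upstream of the annotated gene start for 5 of the 8 genes. They are shown for the 2 CG-rich and 2 of the 3 CG-poorer members, 5′ to 3′ on the strand of the gene, with every CG in capitals.

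Sox2 (GRCm38.p6, chr3:34649745-34649994, strand +): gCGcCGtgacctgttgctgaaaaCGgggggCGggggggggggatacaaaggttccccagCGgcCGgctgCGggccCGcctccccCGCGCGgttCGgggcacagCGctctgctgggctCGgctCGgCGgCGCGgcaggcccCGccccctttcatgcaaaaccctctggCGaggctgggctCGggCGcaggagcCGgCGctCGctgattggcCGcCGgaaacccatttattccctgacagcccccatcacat
Klf4 (GRCm38.p6, chr4:55532476-55532725, strand minus): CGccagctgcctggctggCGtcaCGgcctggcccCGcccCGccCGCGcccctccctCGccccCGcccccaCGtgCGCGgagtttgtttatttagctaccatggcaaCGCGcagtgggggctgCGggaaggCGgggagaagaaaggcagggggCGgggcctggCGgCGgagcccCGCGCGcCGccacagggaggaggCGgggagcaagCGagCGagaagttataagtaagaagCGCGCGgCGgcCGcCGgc
Pou5f1 (GRCm38.p6, chr17:35505782-35506031, strand +): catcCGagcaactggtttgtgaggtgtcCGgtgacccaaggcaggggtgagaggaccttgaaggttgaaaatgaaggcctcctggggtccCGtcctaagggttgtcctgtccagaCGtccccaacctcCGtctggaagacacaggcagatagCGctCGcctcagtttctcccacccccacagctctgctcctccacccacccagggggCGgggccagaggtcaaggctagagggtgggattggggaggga
Nanog (GRCm38.p6, chr6:122707239-122707488, strand +): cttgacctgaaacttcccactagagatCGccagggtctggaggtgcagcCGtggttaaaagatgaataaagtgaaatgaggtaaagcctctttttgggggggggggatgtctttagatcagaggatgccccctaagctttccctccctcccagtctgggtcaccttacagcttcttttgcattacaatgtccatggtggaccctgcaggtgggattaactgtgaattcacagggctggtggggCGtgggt

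The Klf4 sequence held 32 CG dinucleotides and the Sox2 sequence 27, more than 95.4% and 91.4% of the 32851 promoters in the table. Pou5f1 held 8, Esrrb 6 and Nanog 3, where the median promoter held 6. These positions belong to GRCm38.p6 and were not placed on mm9, so which TET1 region covers a promoter was not determined. Of 4 motifs searched on both strands, the octamer ATGCAAAT, the ESRRB-type TCAAGGTCA and the KLF-type GGGTGTGG had no exact match in the 5 sequences. They occur in 1.60%, 0.387% and 3.20% of all promoters. CCCCACCC matched Esrrb and occurs in 9.05% of promoters.

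At least 1 TET1 peak was called in each of the 8 windows in each of the 6 libraries. Coverage is given as times background, the fragments over a peak summit divided by the most frequent local background of the same list, which was between 1.93 and 2.25 fragments. The strongest peak of a window reached 44.6 ± 0.203 times background at Sox2 and 43.8 ± 1.82 at Tbx3 in mock cells (SD, n = 3 each). Lefty1 (27.8 ± 2.51), Klf4 (26.0 ± 0.406), Esrrb (25.1 ± 2.79), Pou5f1 (24.3 ± 3.29) and Nanog (21.9 ± 0.366) followed, and Prdm14 was lowest at 9.69 ± 0.989 (SD, n = 3 each). In this order, Sox2 and Tbx3 overlapped in their ranges over libraries, as did each pair of neighbours from Lefty1 to Nanog. Tbx3 lay above Lefty1, and Nanog above Prdm14, without overlap. Measured against the 29613 regions with a peak in all 6 lists, the strongest Sox2 and Tbx3 regions exceeded 99.4% and 99.3% of regions in mock coverage, and the Prdm14 region 27.5%.

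After nuclease treatment the strongest peak was lower at Sox2, Tbx3, Lefty1, Klf4, Esrrb, Pou5f1 and Nanog, with all 3 treated libraries below all 3 mock libraries. The means were 32.9 ± 3.30 times background at Sox2, 25.7 ± 3.60 at Tbx3, 19.2 ± 2.13 at Klf4, 18.3 ± 3.00 at Lefty1, 17.1 ± 2.34 at Pou5f1, 15.8 ± 3.89 at Nanog and 14.9 ± 3.47 at Esrrb (SD, n = 3 each). The decrease was 41.4% at Tbx3, 40.6% at Esrrb and 34.1% at Lefty1, and between 26.0% and 29.5% at the other 4. At Prdm14 the groups overlapped, at 8.39 ± 1.31 after treatment (SD, n = 3). Each of the 7 separated windows gave an exact two-sided permutation p = 0.1, the smallest that 3 against 3 allows, and Prdm14 gave p = 0.3. Such a separation was common: in 53.2% of the 20798 bins of 25 kb with a peak in every list, all treated libraries lay below all mock libraries. In 0.933% of those bins the treated libraries were all higher. The windows differ from the bins in length and in peak strength. After treatment Sox2 and Tbx3 remained the highest, without overlap between them or with the next, and Prdm14 the lowest, while each pair of neighbours among Klf4, Lefty1, Pou5f1, Nanog and Esrrb overlapped.

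**Figure D1:**
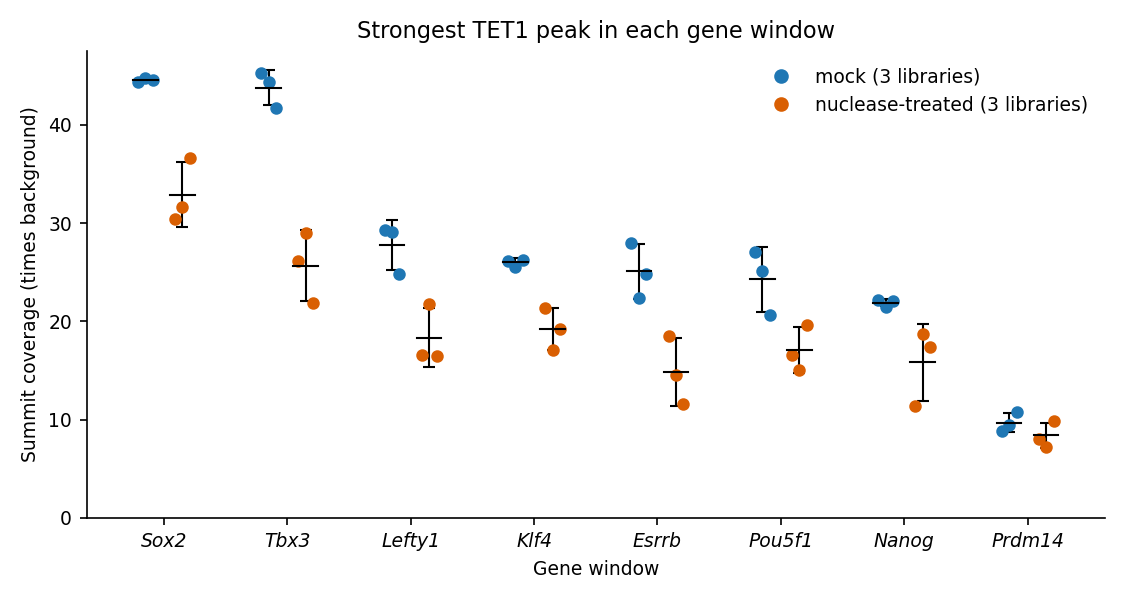
Strongest TET1 peak in each window, as summit coverage in times background (y axis), by gene (x axis, in order of the mock mean). Points are libraries, horizontal lines are means and error bars are SDs of 3; mock and treated points are apart at every gene except Prdm14.

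Across the genome, coverage was lower after treatment, and the member regions were read against that shift. Of the 81 member regions, 23 had a peak in all 6 lists and could be compared in a fit over all 29613 such regions (limma on log2 coverage, Benjamini-Hochberg adjustment). At an adjusted p under 0.05, 6 of the 23 fell and 0 rose. Over all regions 33.0% fell and 0.324% rose. The 11 member regions found in all mock lists but missing from a treated list have no value there and are not among the 23. By limma the median log2 change was -0.37 over the 23 members and -0.35 over all regions, and 20 of the 23 (87.0%) were below 0, as were 84.3% of all regions. All treated libraries lay below all mock libraries in 12 of the 23 and in 44.7% of all regions. When each library was instead centred on its own median, a shift of -0.35 on the log2 scale was removed and 0 of 23 members, against 1.94% of all regions, fell. The calls thus describe a decrease relative to the library background, and for none of the 23 members did a decrease beyond that of the median region pass the test (limma). The largest centred decrease of a member was -0.43 (log2), at the strongest Tbx3 region. In simulated data with 200 planted changes among 29613 regions, the uncentred fit recovered 12% of 50 log2 changes of -0.5. Far more regions were called in the real uncentred fit, which makes its adjusted threshold less strict, so this share does not measure its power. The centred fit was not simulated. How often either fit misses a decrease of that size was thus not measured. Without treated replicate 3, 3 of the 23 members and 24.5% of all regions fell. When only regions of a mean coverage of 10 times background or more were fitted, 10 of 18 members fell, against 10802 of 18725 regions. With the authors' fold enrichment in place of coverage, 16 members fell, against 16538 of the 29613 regions. That fold uses an input pooled within each group, so its p-values do not measure spread between inputs. Within the regions called in all 6 lists, the median decrease was larger where coverage was higher. A weak region that dropped below calling in a treated list is not in this set. How far this affects the smaller decrease of weak regions was not tested. At a mean coverage of 20 times background or more, 74.0% of 3424 regions fell, with a median log2 change of -0.65, and 4 of 7 members fell, with a median of -0.58. In the fit over all regions, 48.1% of the 18725 regions of 10 times background or more fell and 0.0214% rose, where 6 of 18 members fell and 0 rose. Below that, the median was -0.11 over all regions and -0.13 over 5 members, of which 0 fell, against 7.02% of 10888 regions.

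**Figure D2:**
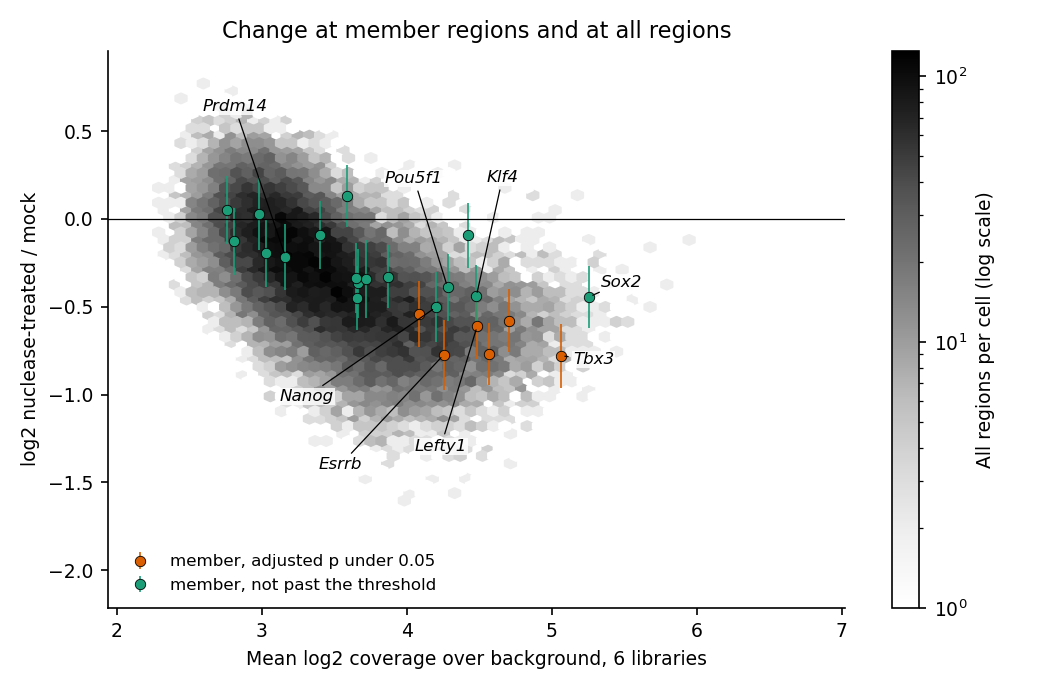
Change at each region with a peak in all 6 lists, as log2 of nuclease-treated over mock (y axis), against mean log2 coverage over the 6 libraries (x axis). Grey cells count all 29613 regions, and points are the 23 member regions with their standard errors; the strongest region of each window is named, and the members lie within the cloud of all regions.

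The window of Pou5f1, which encodes OCT4, had 5 regions found in each of the mock lists. The region of highest mean mock coverage, on chromosome 17 from 35652660 to 35654822, had 27.1, 19.7 and 20.6 times background in mock replicates 1, 2 and 3. The treated replicates had 16.6, 15.0 and 19.7. The groups were apart by a small margin, and the log2 change of -0.39 (SE 0.19) did not pass (limma, adjusted p = 0.122). The second region, from 35640962 to 35643744, had 17.8, 25.1 and 19.2 times background in mock and 14.7, 12.4 and 15.2 in treated libraries. It fell by 0.54 on the log2 scale (SE 0.19, limma adjusted p = 0.0349). That call was lost without mock replicate 2 (adjusted p = 0.166) and without treated replicate 1, 2 or 3 (adjusted p = 0.0615, 0.121 and 0.0528). A narrow region of 513 bp between them, from 35645957, had 7.99, 6.72 and 8.92 times background in mock and 9.97, 8.81 and 5.81 after treatment, with overlapping groups. The sequence under peaks in the Pou5f1 window was 5418, 5614 and 5291 bp in mock and 3011, 3635 and 4009 bp in treated libraries. That is a decrease of 34.7% with the groups apart (exact two-sided permutation p = 0.1). The number of peaks did not follow it: 7, 6 and 6 in mock and 6, 8 and 6 after treatment.

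Sox2, whose product pairs with OCT4 on shared DNA elements, carried the region of highest mean mock coverage in the set. Its range over mock libraries overlapped that of the strongest Tbx3 region. The region on chromosome 3 from 34547449 to 34550554 had 44.4, 44.8 and 44.6 times background in mock replicates 1, 2 and 3, which is 95 to 100 fragments at the summit. The treated replicates had 30.4, 31.6 and 36.6 times background, or 61 to 82 fragments, all below mock. The log2 change of -0.44 (SE 0.18) did not pass in the fit over all regions (limma, adjusted p = 0.0594). It passed when only regions of 10 times background or more were fitted (limma, adjusted p = 0.0295), and when the spread was allowed to follow coverage, a setting added after seeing the data (limma, adjusted p = 0.00938). The peak covered 2989 ± 96.1 bp in mock and 2781 ± 250 bp in treated libraries (SD, n = 3 each). A region at the right edge of the window, from 34561822 to 34563338, fell more. It had 28.9, 29.6 and 34.7 times background in mock and 18.5, 18.1 and 17.9 after treatment, a log2 change of -0.77 (SE 0.18, limma adjusted p = 0.00414). This call held with each library left out (adjusted p from 0.0103 to 0.0154). The region extends past the window, and 3 of the 6 libraries had a peak of it inside. A flanking region from 34540858 to 34541890 had 14.2, 16.1 and 14.1 times background in mock and 9.50, 11.9 and 11.2 in treated libraries, apart but not past the threshold (limma, adjusted p = 0.0613).

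Nanog, the homeobox factor of the core trio, had a single region found in all lists, on chromosome 6 from 122655005 to 122656406. Its coverage was 22.2, 21.5 and 22.1 times background in mock and 11.4, 18.7 and 17.4 in treated replicates. The mock libraries were close to one another, the treated ones were all lower, and treated replicate 1 was lowest. The log2 change of -0.50 (SE 0.20) gave an adjusted p = 0.0592 in limma, which became 0.299 without treated replicate 1 and 0.0420 without treated replicate 2. It was 0.0327 when only regions of 10 times background or more were fitted. A second, weaker region, from 122663041 to 122663458, was called in mock replicates 2 and 3, at 10.3 and 9.39 times background, and in treated replicates 2 and 3, at 10.9 and 13.0. It was called in neither replicate 1.

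Klf4, which encodes a zinc finger factor that binds GC-rich elements, was covered by 1 broad region, the widest of the 81. It lay on chromosome 4 from 55542452 to 55547103, a width of 4652 bp. Summit coverage was 26.2, 25.5 and 26.3 times background in mock and 21.4, 17.1 and 19.2 after treatment, with the groups apart. The log2 change of -0.44 (SE 0.18) did not pass (limma, adjusted p = 0.0625), but did among regions of 10 times background or more (limma, adjusted p = 0.0316). The region was called as 1, 2 and 1 peaks in the mock lists and as 2, 3 and 3 peaks in the treated lists. The bases under those peaks were 4224, 4318 and 3957 in mock and 3802, 2950 and 2902 after treatment, 22.8% fewer (exact two-sided permutation p = 0.1). In the authors' deposited lists, the fold enrichment at the summit was 18.3, 16.4 and 18.2 in mock and 8.41, 9.68 and 7.80 after treatment. The local background that enters this fold was 2.32 ± 0.210 fragments in mock and 3.87 ± 1.18 in treated libraries (SD, n = 3 each). The libraries of a group share 1 pooled input, and its part in the decrease of the fold was not tested. The SD of the local background and the p-value of the fold thus do not measure spread between inputs. The log2 change of that fold was -1.03 (limma, adjusted p = 8.51e-05), and that of the coverage, which does not divide by the local background, was the -0.44 above.

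**Figure D3:**
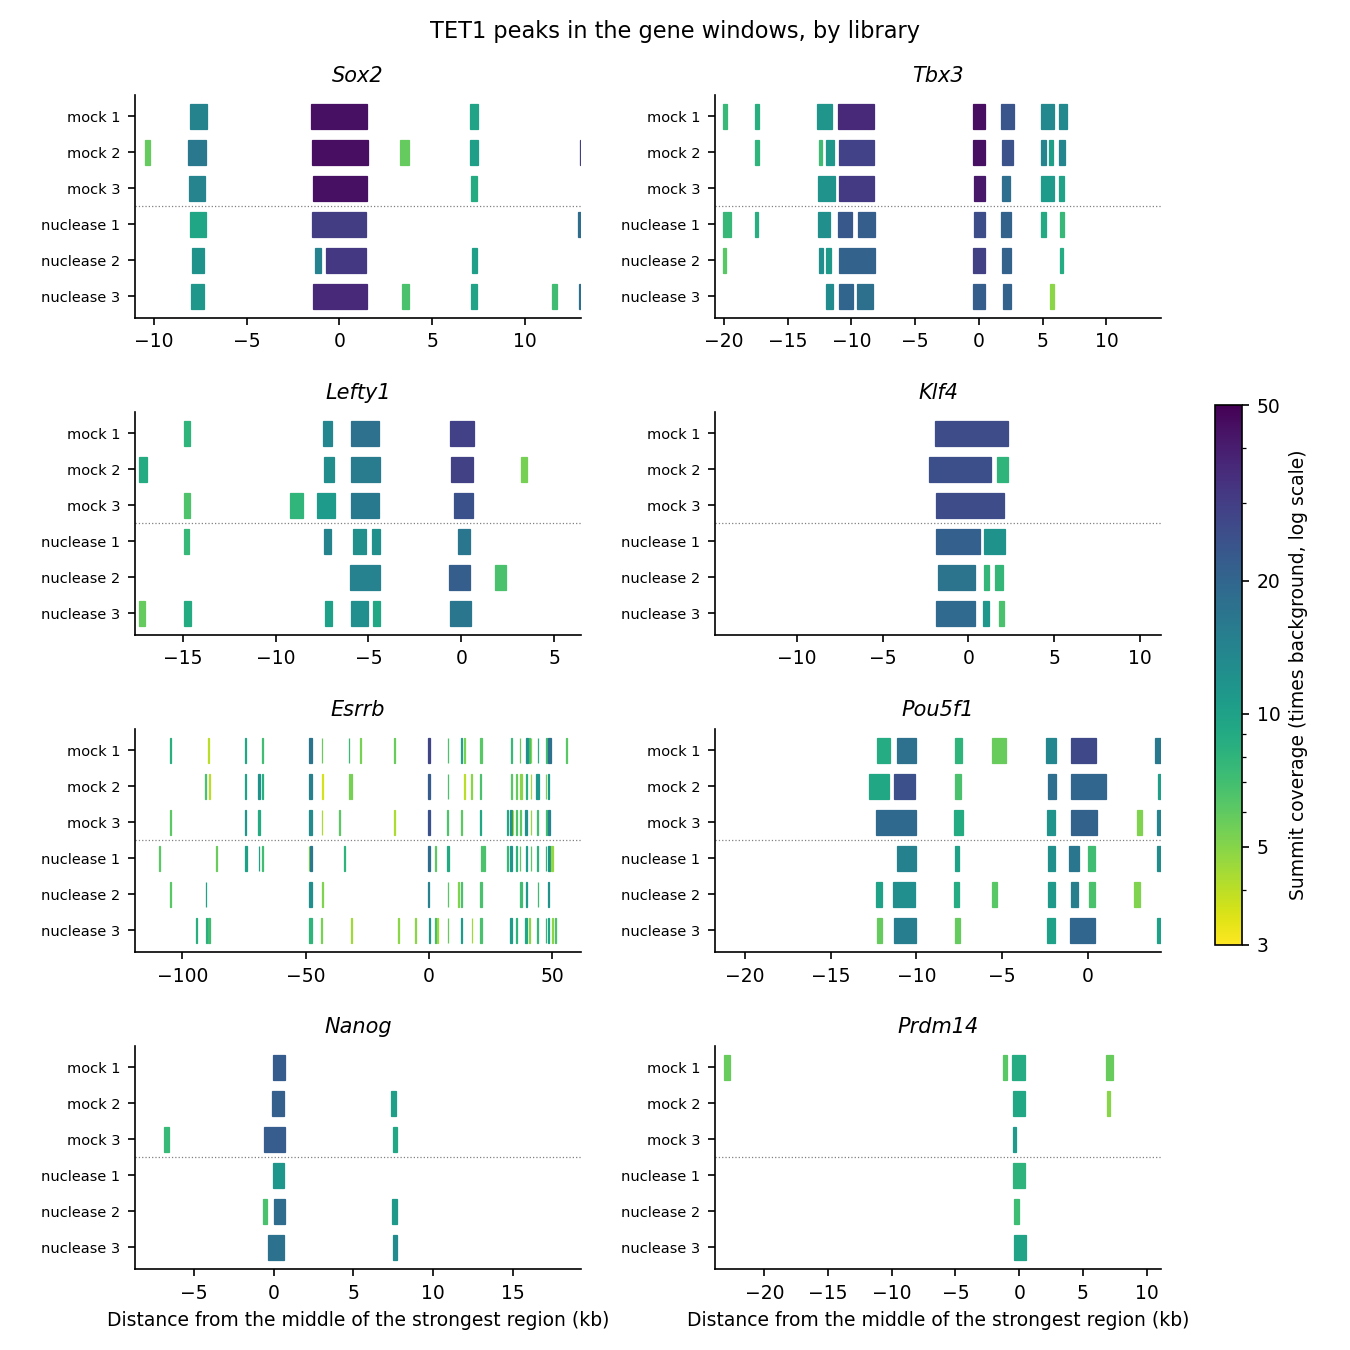
TET1 peaks in the 8 windows. Each bar is a peak of 1 library, placed by its distance in kb from the middle of the strongest region of the window (x axis), in rows for the 3 mock and 3 nuclease-treated libraries, with darker colour for higher summit coverage in times background; the Klf4 bar of mock replicates 1 and 3 is split into 2 or 3 bars in the treated libraries.

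Esrrb, an orphan nuclear receptor of the naive network, held 43 of the 81 regions in its long window. Of the 43, 7 (16.3%) had a peak in all lists and 14 (32.6%) were found in a single library, where the shares over all regions were 21.6% and 34.0%. The strongest, on chromosome 12 from 87810909 to 87811636, had 28.0, 22.4 and 24.9 times background in mock and 18.5, 14.5 and 11.6 after treatment. It fell by 0.77 on the log2 scale (SE 0.20, limma adjusted p = 0.00725), and the call held with each library left out (adjusted p from 0.00778 to 0.0443). The other 6 regions changed by between -0.34 and 0.05 (log2), none past the threshold, and all 6 were above 0 (0.01 to 0.40) when libraries were centred on their medians. These 6 were weaker, with mock means of 6.65 to 14.9 times background. Over all regions the median log2 change without centring was -0.11 under 10 times background and -0.49 at 10 or more, where centring removed a shift of -0.35. A nearby weak region from 87818760 to 87819211 had 6.66, 6.72 and 6.57 times background in mock and 9.02, 6.22 and 5.81 after treatment. The ratio of the strongest region to this one was 4.20, 3.33 and 3.79 in mock and 2.05, 2.33 and 2.00 in treated libraries, with the groups apart (exact two-sided permutation p = 0.1). Peaks in the window numbered 23, 22 and 21 in mock and 23, 13 and 24 after treatment. Treated replicate 2, the library with the fewest peaks in all, was the low one. Without it the treated lists averaged 1.5 peaks more than mock, where with it they averaged 2 fewer.

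Tbx3, a T-box factor that sustains self-renewal, had 2 regions that fell beside 2 that did not pass, and 2 of its 3 ratios between neighbours were apart between the groups. The strongest, on chromosome 5 from 120130222 to 120131210, had 45.3, 44.4 and 41.8 times background in mock and 26.1, 29.0 and 21.9 after treatment. It fell by 0.78 on the log2 scale (SE 0.18, limma adjusted p = 0.00435), and the call held with each library left out (adjusted p from 0.00705 to 0.0240). A broad region from 120119632 to 120122538 had 36.4, 28.7 and 31.0 times background in mock and 23.3, 20.7 and 20.1 after treatment. It fell by 0.58 (log2, SE 0.18, limma adjusted p = 0.0203), a call lost without mock replicate 1 (adjusted p = 0.0901) and without treated replicates 2 or 3 (adjusted p = 0.0556 and 0.0651). In contrast, the region from 120132413 to 120133473, 1202 bp from the strongest, had 24.0, 24.6 and 18.3 times background in mock and 20.9, 20.7 and 20.5 after treatment. Its log2 change was -0.09 (SE 0.18, limma adjusted p = 0.724), or 0.26 with libraries centred on their medians. The strongest region exceeded it 1.89, 1.80 and 2.28 times in mock and 1.25, 1.40 and 1.07 times in treated libraries (exact two-sided permutation p = 0.1). The region from 120118009 to 120119400, 231 bp from the broad one, had 11.5, 11.2 and 11.7 times background in mock and 12.3, 12.4 and 13.0 after treatment. It was the only one of the 23 with all treated libraries above all mock libraries, and its log2 change of 0.13 (SE 0.17) did not pass (limma, adjusted p = 0.589). All treated libraries were higher in 1.39% of all regions. Its ratio to the broad region was 0.317, 0.391 and 0.379 in mock and 0.531, 0.600 and 0.644 after treatment (exact two-sided permutation p = 0.1). The ratio of the broad to the strongest region overlapped between the groups, at 0.804, 0.646 and 0.742 in mock and 0.891, 0.714 and 0.918 after treatment (exact two-sided permutation p = 0.3). Sequence under peaks in the window was 8160, 6870 and 6973 bp in mock and 6656, 5695 and 4766 bp after treatment (exact two-sided permutation p = 0.1).

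**Figure D4:**
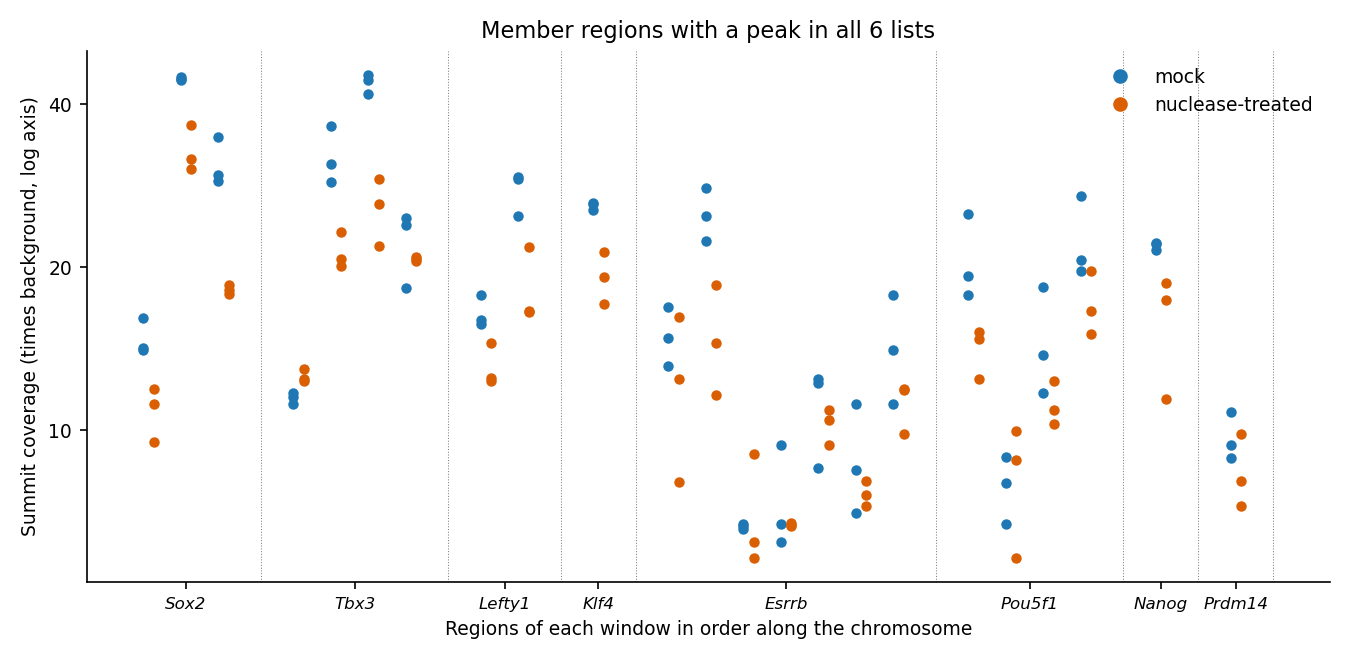
Summit coverage in times background (y axis, log scale) of the 23 member regions with a peak in all 6 lists, grouped by gene and in chromosomal order (x axis). Points are libraries, mock beside nuclease-treated; at Tbx3 the 2 middle regions are lower after treatment, while the 2 outer ones changed by 0.13 and -0.09 (log2), or by 0.48 and 0.26 with libraries centred on their medians.

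The window of Prdm14, a transcriptional regulator needed for naive pluripotency, had the lowest strongest peak of the 8. Its only region in all lists, on chromosome 1 from 13116346 to 13117401, had 8.88, 9.41 and 10.8 times background in mock and 8.07, 7.26 and 9.83 after treatment. The median peak of the same lists had 7.99, 8.06 and 8.45 in mock and 8.07, 8.30 and 7.59 after treatment. The groups overlapped, and the log2 change of -0.22 (SE 0.19) did not pass (limma, adjusted p = 0.388) and became 0.14 when libraries were centred on their medians. The summits had 14 to 23 fragments. Peaks in the window numbered 4, 2 and 1 in mock and 1 in each treated list.

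The window of Lefty1, the Nodal inhibitor and a target of the core factors, had its strongest region on chromosome 1 from 182871883 to 182873238. Coverage there was 29.3, 29.1 and 24.9 times background in mock and 16.6, 21.8 and 16.5 after treatment. It fell by 0.61 on the log2 scale (SE 0.19, limma adjusted p = 0.0180). The call was lost without mock replicate 1 or 2 (adjusted p = 0.0603 and 0.0559) and without treated replicate 1 or 3 (adjusted p = 0.0651 and 0.0678). The local background at this summit was the highest of the 8 strongest regions after treatment, at 5.88 ± 0.325 fragments against 2.85 ± 0.139 in mock (SD, n = 3 each). The libraries of a group share a pooled input, so this SD does not measure spread between inputs. In the authors' deposited lists, the fold went from 16.1 ± 1.33 to 5.69 ± 0.694 (mean of the libraries ± SD, n = 3 each). A neighbouring region from 182866549 to 182868207 had 17.8, 15.7 and 16.0 times background in mock and 12.3, 14.5 and 12.5 after treatment, apart but not past the threshold (limma, adjusted p = 0.160). Its log2 change of -0.33 became 0.02 with libraries centred on their medians. Sequence under peaks was 3595, 3911 and 4553 bp in mock and 2613, 3341 and 3510 bp after treatment (exact two-sided permutation p = 0.1).

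Ratios between neighbouring regions do not depend on how a library is scaled, and this comparison was chosen after the values were seen. Of 14 pairs of neighbouring member regions up to 25 kb apart, 5 had ratios that did not overlap between mock and treated libraries, against 24.0% of the 17153 such pairs in the genome. They were the Esrrb pair and both Tbx3 pairs above, with 1 pair each at Lefty1 and Sox2. At Lefty1 the neighbour reached 0.606, 0.538 and 0.642 of the strongest region in mock and 0.743, 0.667 and 0.757 after treatment. At Sox2 the strongest region exceeded the one at the right edge 1.54, 1.52 and 1.28 times in mock and 1.64, 1.74 and 2.05 times after treatment. The left Sox2 flank kept a mean ratio of 0.332 ± 0.0244 in mock and 0.331 ± 0.0397 after treatment to the strongest region (SD, n = 3 each, exact two-sided permutation p = 1). With the authors' fold enrichment 3 of the 14 pairs were apart, and the share over all pairs is not given for that measure.

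Over all windows, the number of peaks overlapped between the groups, while the sequence under them did not. The 8 windows held 51, 54 and 46 peaks in mock and 50, 42 and 54 in treated lists (exact two-sided permutation p = 0.7). The sequence under them was 39760, 39461 and 38075 bp in mock and 31818, 27146 and 33508 bp after treatment, with the groups apart (exact two-sided permutation p = 0.1). The means were 39099 bp in mock and 30824 bp after treatment. A similar decrease was seen over the genome. Over all 25 kb bins with any peak, the treated total of sequence under peaks was 0.785 of the mock total. Over bins with a peak in every list it was 0.808. By gene, the treated libraries had less sequence under peaks without overlap at Pou5f1, Klf4, Lefty1 and Tbx3, which is 4 of 8 windows, and the groups overlapped at Sox2, Nanog, Esrrb and Prdm14. Among 25 kb bins with a peak in every list, 31.2% were lower without overlap and 1.18% higher, and among the 49943 bins with any peak 18.9% were lower and 1.20% higher. For the number of peaks, 0 of 8 windows were apart. Of bins with a peak in every list, 4.51% were lower and 1.15% higher in peak number, and of bins with any peak 4.23% and 0.809%.

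**Figure D5:**
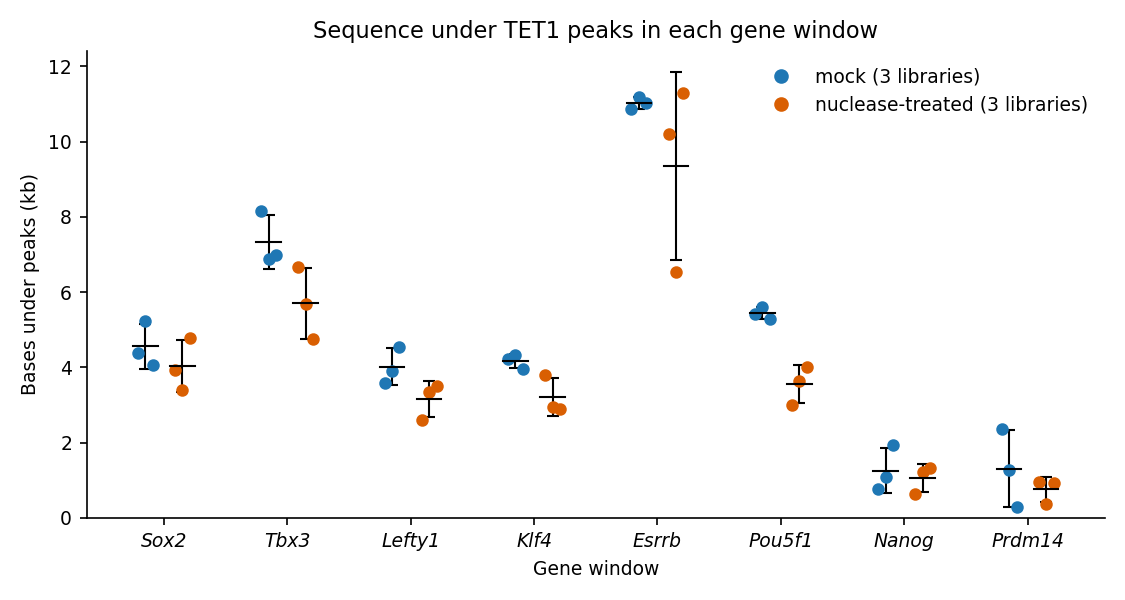
Sequence under TET1 peaks in kb (y axis) in each window, by gene (x axis, in order of the strongest mock peak). Points are libraries, horizontal lines are means and error bars are SDs of 3; the groups are apart at Tbx3, Lefty1, Klf4 and Pou5f1.

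Presence of a peak was mostly kept. Of the 34 member regions with a peak in all 3 mock lists, 23 also had one in all 3 treated lists (67.6%), and 0 lacked a peak in every treated list, against 6.67% over the whole series. Over the whole series, 61.3% of 48273 such regions had a peak in all treated lists. Treated replicates 1, 2 and 3 had a peak in 32, 27 and 30 of the 34, and in 79.4%, 74.9% and 81.5% of such regions over the whole series. Without treated replicate 2, 28 of the 34 (82.4%) were in both other treated lists, against 70.4% over the whole series. Of the 11 regions missing from 1 or 2 treated lists, 6 had a higher mean where still called than in mock and 5 a lower one. The treated mean leaves out the lists in which the region was not called, so these means cannot show a rise. Over the whole series 36.7% of 15438 such regions were higher. The 6 were 1 Sox2 region, from 34556043 to 34556480, with means of 9.66 in mock and 10.1 where still called, and 5 Esrrb regions. The Esrrb means went from between 4.53 and 8.67 in mock to between 5.27 and 11.1. The 5 lower ones were 2 at Tbx3 and 1 each at Pou5f1, Lefty1 and Esrrb, and the Tbx3 pair, from 120135578 to 120136602 and from 120136981 to 120137644, had the largest differences. The first had 13.3, 13.9 and 10.8 times background in mock and 9.02 and 4.91 in treated replicates 1 and 3. The second had 13.3, 13.9 and 9.85 in mock and 7.60 and 8.81 in treated replicates 1 and 2. No member region was found in all 3 treated lists and in no mock list, a class of 575 among the 137027 regions. The 22 regions found in a single library (27.2%, against 34.0% of all regions), 10 in a mock and 12 in a treated one, had between 4.22 and 8.49 times background.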

How the data were processed

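TET1 ChIP-seq peak lists of 3 mock-treated and 3 nuclease-treated libraries were used. Per the submitters' processing notes, Bowtie2 2.2.8, SAMtools 1.3.1, MACS2 2.1.1 and build mm9 were used. Per the file headers, here the peak names, each ChIP library was called against an input pooled within its condition. Each deposited peak has the authors' fold enrichment (a ratio of ChIP coverage to local background), -log10 p and -log10 q values, and a score derived from the latter.

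From fold and -log10 p, the whole-number coverage of each summit and its local background were recovered, for all but 2 to 4 peaks per list, none of them in the windows. Coverage was divided by the list's most frequent local background. Median summit coverage was 16 to 18 fragments per list, and total read depth is not given in the sources used here. Peaks that overlapped or touched were merged. Regions with a peak in all 6 lists were fitted with limma 3.58.1 (R 4.3.3) on log2 coverage. Windows were compared by exact permutation tests of 20 label orders, and 25 kb bins gave the background. Scripts were tested on simulated data. Alternatives covered the measure, scaling, filter, merging, thresholds, replicate block and each library left out.

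The members and lists were chosen with earlier results of these data known. The strongest region of each window was named by rule; other regions were named after their values were seen. Other genes of the network were not located, for want of an mm9 annotation here.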

Additional observations from a re-analysis of the deposited data

How the results depend on the processing

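Of 405 recomputed values, 363 were counted as unchanged. For the strongest regions this meant the same direction and side of the threshold, and for counts of called regions a small change. For window measures it meant only that the direction was not opposite, whatever the size or p-value. Where the main difference was 0, as for peak number at Nanog and Lefty1, no alternative could count as reversed. With the authors' fold enrichment, 16 member regions and 16538 of all regions fell, and 3 neighbour pairs were apart (share over all pairs not given). With libraries centred on their medians, 0 members and 574 of all regions fell, 445 rose, the Prdm14 region changed by 0.14 (log2) and the strongest Prdm14 peak was higher by 0.924 times background. Among regions of 10 times background or more, 10 members fell and 11 of all regions rose. With the spread following coverage, 61 of all regions rose. Leaving out 1 library gave 3 to 6 members that fell. Of all regions, 7154 to 8690 then fell and 51 to 144 rose, and 5 to 7 pairs were apart (share over all pairs not given). The mean difference in peak number, treated minus mock, then ranged from -0.333 to 0.667 at Pou5f1, -0.5 to 1.33 at Sox2, -4 to 1.5 at Esrrb and -1.17 to 0.333 at Tbx3, and in bases at Nanog from -438 to 142. It was -0.667 at Pou5f1 with a stricter q threshold and 2 at Esrrb with lists of equal length. The causes were not tested.

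Deviations of same-numbered libraries correlated at 0.0134, -0.00488 and 0.0379, and those of different-numbered libraries at between -0.0417 and 0.0333. Whether mock and treated replicates were prepared as pairs cannot be told from these values. With a replicate block, 6 members fell and 0 rose, and 9584 of all regions fell. A region without a call in a list has no value there, so its absence is not evidence of unbound sequence.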
